A study of Mus musculus with 8 samples.

Results

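Between breast tumors of TSLP-transgenic and control mice, the intergenic acetylated regions found in both transgenic tumors and in no control tumor were described here. H3K27ac, the acetylation of lysine 27 on histone H3, had been mapped by ChIP-seq in 4 mouse breast tumors, and each tumor had its own list of peaks. Peaks that overlapped or touched were joined across the 4 lists into 89238 autosomal regions, of which 31584 were intergenic, meaning that they touched no protein-coding gene body and did not come within 1 kb of a protein-coding transcription start site (TSS). The regions described below, called members, were chosen by the presence of a peak in both test tumors and its absence in both control tumors. They numbered 486 of the 31584 intergenic regions, or 1.54%. The opposite pattern, control-only, with peaks in the pair of control tumors alone, was held by 1192 intergenic regions, or 3.77%, and 10170 intergenic regions had a peak in all 4 tumors.

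The study asked how TSLP, a cytokine made by epithelial cells, alters breast cancer through CD4+ T cells. All 4 mice were on a Balb/c background, carried the polyoma middle T oncogene (PyMT) under the mammary tumor virus promoter, lacked Rag1 and with it T and B cells of their own, and were given CD4+ T cells by injection when 4 weeks old. The 2 control mice were PyMT;Rag1KO, and the 2 test mice were K14-TSLPtg;PyMT;Rag1KO, in which the keratin 14 promoter of skin and other stratified epithelium drives TSLP. Tumors were taken at terminal size, each from a separate mouse, and in the titles of the samples the controls are named tumor and the tests cyst. Control 1 and 2 had lists of 69861 and 67850 intervals, test 1 and 2 lists of 65763 and 59762, and read depth is unknown. Peaks lay on 20, 19, 19 and 19 of the 20 luminal marker promoters in control 1, control 2, test 1 and test 2, and on none of the 16 hepatocyte marker promoters (0 in each tumor). On 18 fibroblast marker promoters the counts were 8, 7, 7 and 1, and on 16 endothelial ones 7, 5, 4 and 0, so that test 2 stood lowest for both. The tumors were bulk tissue, in which fewer cells of a type and less acetylation per cell cannot be told apart.

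H3K27ac marks the nucleosomes beside active promoters and enhancers. Enhancers are stretches of DNA, often far from any gene, to which transcription factors bind and from which the activity of genes nearby on the chromosome is raised. In the mammary gland, enhancers of milk and luminal genes are bound by factors such as STAT5, ELF5, GATA3 and glucocorticoid receptor, and distal acetylation differs more between cell types than acetylation at promoters does.

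To show what these regions look like as DNA, the central 300 bases (or the whole region where it was shorter) are printed for the widest member and for the members assigned to mammary regulator and luminal genes. A region was assigned to the nearest protein-coding TSS within 100 kb, and the widest one is labelled by its nearest gene. The letters are the reference genome (mm10, GRCm38), which is of another strain than the mice studied. They are read 5′ to 3′ on the plus strand, and capitals mark matches on either strand to the short motifs TGANTCA (AP-1), AGGAAGNA (ELF5-type ETS) and TTCNNNGAA (STAT). They also mark the GATA motif AGATAAG, the SOX motif ACAATGG, the C/EBP motif TTGCNNAA and the RUNX motif TGTGGTT. A match is a string of letters and no measure of binding.
Car8, chr4:8374530-8374829: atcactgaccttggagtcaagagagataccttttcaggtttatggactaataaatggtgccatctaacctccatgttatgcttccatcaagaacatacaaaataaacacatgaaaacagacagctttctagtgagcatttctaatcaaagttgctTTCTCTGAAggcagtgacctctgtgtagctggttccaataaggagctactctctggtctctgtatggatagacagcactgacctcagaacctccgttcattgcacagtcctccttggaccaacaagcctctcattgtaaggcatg
Igfbp5, chr1:72891400-72891699: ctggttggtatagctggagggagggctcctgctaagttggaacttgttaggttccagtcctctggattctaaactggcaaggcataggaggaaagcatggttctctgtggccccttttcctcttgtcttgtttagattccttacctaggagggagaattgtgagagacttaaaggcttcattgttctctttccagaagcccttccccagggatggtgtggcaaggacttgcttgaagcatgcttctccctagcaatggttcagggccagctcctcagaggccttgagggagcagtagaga
Elf5, chr2:103397383-103397682: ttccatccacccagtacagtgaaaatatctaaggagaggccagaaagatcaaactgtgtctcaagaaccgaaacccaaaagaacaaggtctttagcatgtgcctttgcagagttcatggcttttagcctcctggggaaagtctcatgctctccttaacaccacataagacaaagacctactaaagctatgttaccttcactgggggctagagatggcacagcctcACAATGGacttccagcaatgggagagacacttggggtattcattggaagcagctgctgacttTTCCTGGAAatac
Tfap2c, chr2:172637315-172637614: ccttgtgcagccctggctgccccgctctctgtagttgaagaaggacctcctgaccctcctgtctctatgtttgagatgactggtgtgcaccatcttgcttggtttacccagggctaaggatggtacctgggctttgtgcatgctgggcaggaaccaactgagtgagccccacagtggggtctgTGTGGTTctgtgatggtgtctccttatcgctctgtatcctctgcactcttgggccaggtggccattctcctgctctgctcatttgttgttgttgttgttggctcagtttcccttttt
Cd24a first, chr10:43641256-43641555: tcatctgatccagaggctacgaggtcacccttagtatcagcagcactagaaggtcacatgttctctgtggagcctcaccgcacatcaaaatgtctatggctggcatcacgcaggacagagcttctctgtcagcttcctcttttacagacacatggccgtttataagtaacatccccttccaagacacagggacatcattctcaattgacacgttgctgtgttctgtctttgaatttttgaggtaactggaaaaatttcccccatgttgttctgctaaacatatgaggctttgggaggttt
Cd24a second, chr10:43641963-43642261: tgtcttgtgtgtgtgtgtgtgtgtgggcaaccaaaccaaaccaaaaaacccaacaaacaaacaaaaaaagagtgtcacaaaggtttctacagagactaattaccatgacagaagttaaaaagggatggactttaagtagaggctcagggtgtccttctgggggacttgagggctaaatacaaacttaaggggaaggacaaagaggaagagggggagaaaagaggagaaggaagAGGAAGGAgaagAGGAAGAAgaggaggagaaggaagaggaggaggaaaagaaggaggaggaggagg
Tspan8, chr10:115807737-115808011: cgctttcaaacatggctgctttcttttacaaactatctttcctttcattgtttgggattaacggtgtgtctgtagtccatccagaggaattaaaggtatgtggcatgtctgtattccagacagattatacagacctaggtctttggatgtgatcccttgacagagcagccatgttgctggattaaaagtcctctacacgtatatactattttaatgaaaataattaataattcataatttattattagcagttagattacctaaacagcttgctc
Id2 nearer, chr12:25108994-25109293: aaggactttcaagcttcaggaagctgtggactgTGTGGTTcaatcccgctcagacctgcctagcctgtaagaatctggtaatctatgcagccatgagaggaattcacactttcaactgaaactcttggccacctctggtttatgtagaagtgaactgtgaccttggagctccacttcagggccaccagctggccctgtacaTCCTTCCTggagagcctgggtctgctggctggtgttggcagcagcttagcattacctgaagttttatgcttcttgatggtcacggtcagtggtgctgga
Id2 farther, chr12:25151907-25152135: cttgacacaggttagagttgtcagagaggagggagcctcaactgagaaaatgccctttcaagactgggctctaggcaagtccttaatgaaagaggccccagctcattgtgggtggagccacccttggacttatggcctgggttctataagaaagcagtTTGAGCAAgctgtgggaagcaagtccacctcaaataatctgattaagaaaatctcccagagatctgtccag
Capitals were sparse in these windows. The Elf5 window held 1 STAT and 1 SOX match, the Id2 window nearer the gene held 1 ETS and 1 RUNX match, and no AP-1 match was found in any of the sequences printed (0 in each). The paired ETS matches of the second Cd24a window lay in a purine-rich repeat.

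The members were mostly narrow peaks. Their median width was 424.5 bp, with quartiles of 304 and 643.25 bp and a range from 169 to 4164 bp, and together they spanned 269.6 kb. In test 1 the peaks in a member covered a median of 260 bp, between 166 and 1236 bp. In test 2 the median was 306.5 bp, between 161 and 4164 bp. Of the 486 members, 55 (11.3%) were at least 1 kb wide, against 5.79% of the control-only intergenic regions and 76.1% of the intergenic regions with a peak in all 4 tumors. All intergenic regions together had a median width of 483 bp, with 30.2% at least 1 kb wide. The control-only regions were narrow in the same way, with median covered widths of 285.5 bp in control 1 and 262 bp in control 2. Widths came from the same peak calls as the choice of members and are given as a description.

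The widths in the test tumors had little relation to each other. A peak of at least 500 bp was present in test 1 in 56 members (11.5%) and in test 2 in 138 (28.4%), but 26 members (5.35%) had one in both, while 318 (65.4%) had one in neither. Of the control-only regions, 75 of 1192 (6.29%) had at least 500 bp in both control tumors, a share near that of members. The relation of their widths was not measured. Of the regions shared by all 4 tumors, 62.7% were covered over at least 500 bp in every tumor. The rank correlation of the widths in test 1 and test 2 was 0.192 (Spearman's rho over 486 members, which share 2 libraries). Test 2 had the wider coverage in 295 members (60.7%) and test 1 in 189 (38.9%), whereas over the shared regions test 2 was the wider of the test tumors in 43.6%. The shortest peaks were frequent, since 132 members (27.2%) were covered over less than 200 bp in test 1 and 100 members (20.6%) in test 2. The bases common to both test tumors had a median of 193 bp and made up 49.8% of the region at the median.

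**Figure D1:**
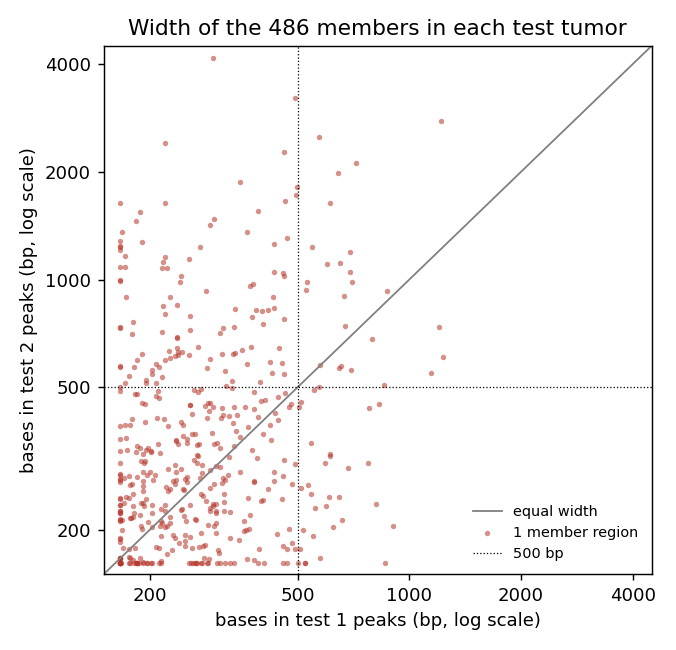
Bases in peaks of test 1 (x axis) and test 2 (y axis) for each of the 486 members, in bp on log scales. Points crowd near the smallest widths, and those above 1 kb lie almost all at the top, where test 2 is wide and test 1 narrow.

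The 10 widest members were wider in test 2 than in test 1 without exception. In each of them (10 of 10) test 2 spanned the whole region, and test 1 covered between 220 and 1216 bp of it. The widest, chr4:8372598-8376761, lay 133.557 kb from Car8, which encodes a carbonic anhydrase-related protein, and was covered over 295 bp in test 1 and over its whole 4164 bp in test 2. Control peaks were 18159 bp away in control 1 and 17001 bp away in control 2. The promoter of Car8, taken as 1 kb either side of the TSS, was covered to 13.04% and 0% in control 1 and 2 and to 30.1% and 57.8% in test 1 and 2, so that both test tumors lay above both control tumors. Over genes with an intergenic region, 14.2% of promoters had this order. At 133.557 kb the member was too far from Car8 to be assigned to it. The member chr5:88689917-88693139, 13.746 kb from the RNA-binding protein gene Grsf1, measured 491 bp in test 1 and 3223 bp in test 2. Near Slc1a4, a neutral amino acid transporter gene, chr11:20427510-20430278 had 1216 and 2769 bp, the widest test 1 coverage of the 10.

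The other wide members lay near Slc10a2, the ileal bile acid transporter (chr8:5008721-5011218, 572 and 2498 bp in test 1 and test 2), Cr2, a complement receptor of B cells (chr1:195347179-195349591, 220 and 2413 bp), and Mast4, a microtubule-associated kinase (chr13:103507479-103509590, 717 and 2112 bp). The region nearest Mast4 was 172.982 kb from its TSS, too far for assignment. The Mast4 promoter was covered to 43.6% and 42.9% in the controls against 63.4% and 64.5% in the test tumors, again the order held by 14.2% of promoters. The Grsf1 promoter (68.5%, 86.8%, 89.0% and 73.5% in control 1, control 2, test 1 and test 2), the Sipa1l3 promoter (86.2%, 97.4%, 98.4% and 85.5%) and the Zfp608 promoter (80.2%, 78.1%, 78.6% and 78.9%) did not separate the groups. Those of Slc1a4 and Rpl14 were fully covered in every tumor (100%). The promoters of Slc10a2, Cr2 and Slc14a2 had no peak in any tumor (0% in each). Members near Sipa1l3 (chr7:29573821-29575811, 643 and 1991 bp), the ribosomal protein gene Rpl14 (chr9:120732200-120734072, 349 and 1873 bp), the zinc finger gene Zfp608 (chr18:54820614-54822884, 459 and 2271 bp) and the urea transporter gene Slc14a2 (chr18:78624574-78626393, 498 and 1820 bp) completed the set. The nearest gene is named as a landmark, and whether a region acts on it was not measured.

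The distance to the nearest control peak was taken for members only. It was not measured for other intergenic regions, so nothing particular to members is read from it. The gap from a member to the nearest control peak had a median of 3005.5 bp, with quartiles of 475.25 and 11483.8 bp. A control peak lay within 200 bp of 44 members (9.05%), within 1 kb of 165 (33.95%) and within 10 kb of 355 (73.0%), and 30 members (6.17%) had none within 50 kb. Just inside the limit of the rule, the member near Stxbp6 (chr12:44849020-44849502) was 11 bp from a peak of control 1, and the one near Hhat (chr1:192797888-192799123) was 13 bp from it. A member near Cxxc5, only 169 bp wide, was 20 bp from it. Just outside, regions near Lyg1, Avpr1b and Atp2b1 were left out because 155 bp of control 1 peaks lay in each. Of the 11934 intergenic regions with a peak in both test tumors, the members made up 4.07%, and a further 1278 were shared with 1 control tumor.

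The members were spread over the 19 autosomes and rarely lay together. No run of 3 or more members with gaps of at most 50 kb was found (0 groups), 32 pairs of neighbours held 64 members, and the other 422 were single. Members made up between 0.955% of the intergenic regions of chromosome 4 (20 of 2094) and 2.66% of those of chromosome 18 (27 of 1015), with 2.34% on chromosome 11 (45 of 1920). For control-only regions the share ran from 2.36% on chromosome 19 to 4.59% on chromosome 10. The median distance from a member to the nearest protein-coding TSS was 40359.5 bp, against 44095 bp over all intergenic regions and 45065 bp over control-only ones. Beyond 100 kb lay 135 members (27.8%, exact binomial 95% interval 23.8 to 32.0, counting error only), close to the 29.4% of all intergenic regions. Closest to a TSS were the members near Rdh11 (1470 bp), Ube4a (1583 bp) and Cenpm (1754 bp). Upstream of the nearest gene lay 64.0% of members and 68.1% of all intergenic regions.

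Long noncoding RNA genes overlapped 81 members (16.7%), a share near the 17.6% of all intergenic regions, and 15 (3.09%) lay within 1 kb of the start of such a gene, against 4.09%. No annotated gene of any type overlapped 394 members (81.1%), near the 79.8% of all intergenic regions. In base composition the members also resembled the rest, with a median GC content of 46.3% in the central windows, against 46.7% for all intergenic regions. Repeat-masked bases made up over 50% of the window in 9.67% of members and in 9.52% of all intergenic regions.

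To see whether acetylation around the members also differed, the percent of bases in peaks was taken within 10 kb on either side, with the member itself left out. Around members the mean was 9.48% and 8.39% in control 1 and 2, against 10.0% and 10.3% in test 1 and 2, so that both test tumors lay above both control tumors. The test mean was 1.26 percentage points above the control mean, with an SD of 0.648 over the 4 test-control pairs of tumors. Over all intergenic regions the order was different, with 10.2% and 8.87% in control 1 and 2, against 9.57% and 8.32% in test 1 and 2. Test 2 was thus the lowest of the 4 tumors around intergenic regions in general and the highest around members. Around control-only regions the values were 9.45%, 8.41%, 7.39% and 5.94%, a difference of -2.26 points. The flanks were measured in the tumors that had chosen the members, and with 2 tumors a group an exact permutation test could not go below p = 0.333, so no test is given.

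**Figure D2:**
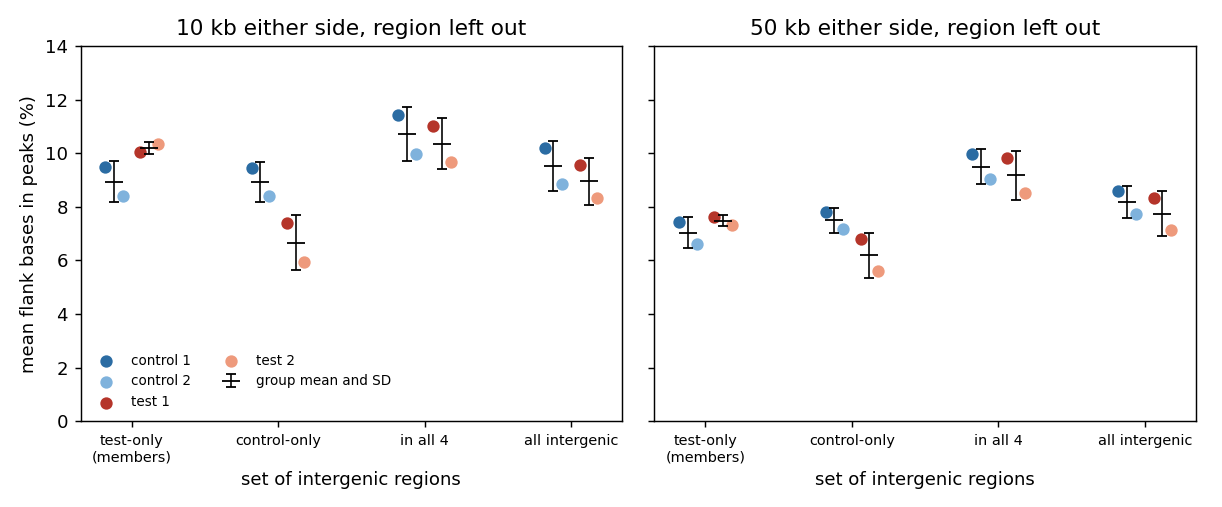
Mean percent of flanking bases in peaks for each tumor (points) in 4 sets of intergenic regions, 10 kb and 50 kb either side, with group means and SD (n = 2 tumors). Around members at 10 kb both test tumors (10.0% and 10.3%) lie above both control tumors (9.48% and 8.39%), and at 50 kb the groups overlap.

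Region by region, both test tumors exceeded both control tumors in the flanks of 116 members (23.9%), against 9.47% of all intergenic regions. The reverse order was seen in 23 members (4.73%), against 14.6%. No tumor had a peak in the flanks of 90 members (18.5%), near the 16.7% of all intergenic regions. At 50 kb on either side the means were 7.44%, 6.63%, 7.63% and 7.33% in control 1, control 2, test 1 and test 2, and test 2 fell below control 1. The difference of 0.447 points was then smaller than the SD over these pairs of 0.500. Members were also nearer to shared acetylation than control-only regions were. An intergenic region present in all 4 tumors lay within 10 kb of 57.2% of members and of 46.2% of control-only regions, at median distances of 6657.5 and 11452 bp.

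**Figure D3:**
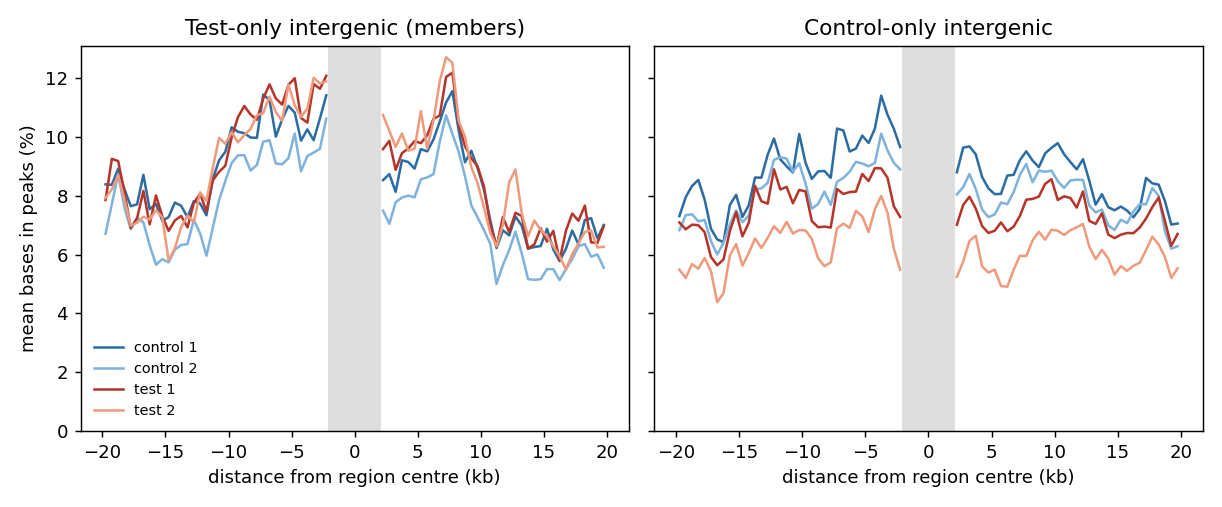
Mean percent of bases in peaks by distance from the region centre (kb, in 500 bp bins, lower coordinates to the left), for the 486 members and the 1192 control-only regions, 1 line per tumor. The 2 kb on each side of the centre are left out; within about 10 kb of members the test lines run mostly above that of control 2 and closer to that of control 1, while around control-only regions test 2 runs lowest.

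Within 100 kb, 351 members were assigned to 329 genes, which is 4.89% of the 6732 genes with any intergenic region, and 135 members were too far from a TSS to be assigned. A gene with more intergenic regions has more chances to hold a member, and the median number of regions was 4 for genes with a member and 2 for all. Promoters of the 329 genes were covered to 46.5% and 47.0% in control 1 and 2 and to 49.6% and 48.0% in test 1 and 2. The test mean was 2.07 points above the control mean, with an SD of 0.992 over these pairs, and over the promoters of all 6732 genes the difference was 0.608 points. Both test tumors exceeded both control tumors at 61 of the 329 promoters (18.5%), against a background of 14.2%. The reverse held at 18 (5.47%), against 7.74%. Most of these promoters were acetylated in both groups, as were those of the 6732 genes. A peak was present in all 4 tumors at 216 (65.7%, against 60.9% of the 6732) and in none at 86 (26.1%, against 28.7%). Only 1 promoter was test-only and 1 control-only, beside 22 and 54 of the 6732.

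Among 218 intergenic regions assigned to mammary alveolar and hormone regulators, 5 were members (2.29%) and 2 were control-only (0.917%). Among 89 regions of luminal markers, 3 were members (3.37%) and none was control-only (0). Over all genes the shares were 1.58% and 3.66%. With peaks of at least 500 bp the members numbered 3 for regulators and 1 for luminal markers. Of the members counted above, only that of Igfbp5 had at least 500 bp in both test tumors, so the others were different regions. Within 20 kb of the TSS the members again numbered 3 and 1. Without test 1 or test 2, which loosens the rule, they numbered 29 and 27 for regulators and 11 and 14 for luminal markers. No test was made of these shares, and the lists were drawn up with earlier results of the same lists of peaks known. None of the 108 regions of milk and secretory genes was a member (0), and none of the 39 regions of basal and myoepithelial genes (0). Control-only regions numbered 1 (0.926%) and 2 (5.13%). At 1.58%, 39 regions would hold fewer than 1 member, so nothing is read from the 0 of the basal list. For milk and secretory genes the count of members depended on single tumors: leaving 1 out, which loosens the rule, gave 8 without control 1, 2 without control 2, 8 without test 1 and 20 without test 2, and it was 1 with equal numbers of peaks per tumor. On the 17 basal marker promoters the tumors had 10, 6, 8 and 3 peaks, in the order control 1, control 2, test 1 and test 2.

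**Figure D4:**
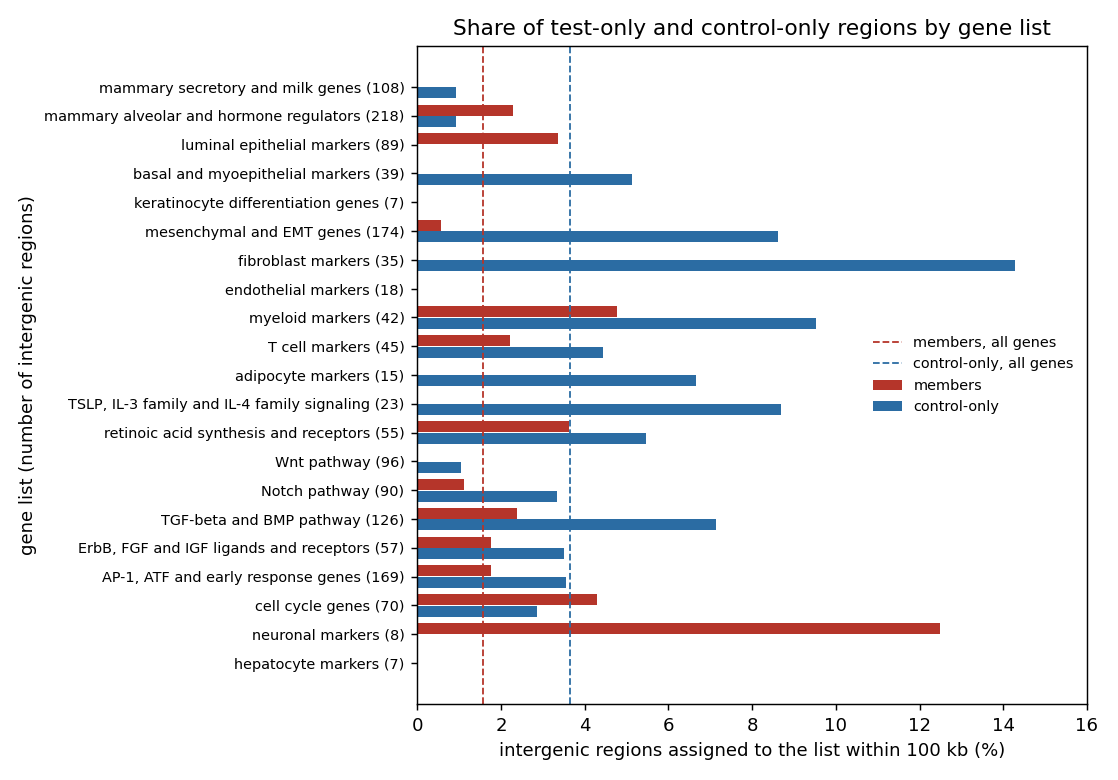
Percent of the intergenic regions assigned to each gene list that were members (red) or control-only (blue), with the number of regions in brackets. Dashed lines give the shares over all genes (1.58% and 3.66%); members exceed control-only regions for mammary regulators, luminal markers, cell cycle genes and neuronal markers, the last from 1 region of 8.

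Elf5 encodes the ETS factor that directs alveolar differentiation. Its member, chr2:103397374-103397692, lay 13.996 kb upstream of the TSS and was covered over 319 bp in test 1 and 275 bp in test 2. The nearest control peaks were 4229 bp (control 1) and 4487 bp (control 2) away. Its flanks were covered to 28.9%, 25.6%, 31.5% and 27.1% in control 1, control 2, test 1 and test 2, so that the groups overlapped, and the Elf5 promoter to 17.4%, 0%, 17.5% and 0%, with a peak in the first tumor of each group only.

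Igfbp5, which encodes a secreted binding protein of insulin-like growth factors, had the widest member of the mammary regulator and luminal lists. The region chr1:72890994-72892105 lay 16.11 kb upstream and measured 651 bp in test 1 and 1112 bp in test 2. Control peaks stood 2361 and 2635 bp away. In its flanks the order of the tumors did not follow the groups, with 15.1% and 9.28% in control 1 and 2 and to 13.1% and 2.78% in test 1 and 2.

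The Tfap2c member, downstream of the gene for the luminal factor AP-2 gamma by 87.671 kb, was covered over 403 bp in test 1 and 242 bp in test 2 (chr2:172637264-172637666). It was among the members that lay beside control acetylation, with gaps of 263 bp to control 1 and 39 bp to control 2. Its flanks were covered to 58.4%, 59.5%, 53.7% and 44.4% in control 1, control 2, test 1 and test 2, so that both control tumors lay above both test tumors, an order held by 4.73% of members and 14.6% of all intergenic regions.

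Id2 encodes an inhibitor of basic helix-loop-helix factors that lactation requires, and within 100 kb had members on its upstream side at 11.846 and 54.767 kb. The nearer, chr12:25108986-25109302, was covered over 317 bp in test 1 and 239 bp in test 2 and was 720 bp from a peak of control 1. The farther, chr12:25151907-25152135, was covered over 183 and 161 bp and lay in the lincRNA gene Gm36287. Flank coverage of the nearer was 20.7% and 20.3% in the controls against 22.1% and 21.8% in the test tumors, and of the farther 36.5% and 28.8% against 38.8% and 41.8%. Both times the groups did not overlap, in the order that 9.47% of all intergenic regions showed. The Id2 promoter was fully covered in all 4 tumors (100%).

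Cd24a, a gene for a surface protein of luminal cells, also had a pair of members within 100 kb, chr10:43641253-43641559 and chr10:43641963-43642261. They lay 62.969 and 63.679 kb downstream of its TSS in the lincRNA gene F930017D23Rik. The first was covered over 206 bp in test 1 and 284 bp in test 2, and the second over 257 and 191 bp. Control peaks came no nearer than 8544 bp. The Cd24a promoter, too, was fully covered in every tumor (100%). The Tspan8 member, chr10:115807737-115808011, was 8.821 kb upstream of the gene for this tetraspanin and had 169 bp in test 1 and 178 bp in test 2, of which 72 bp were common to both. A control 1 peak began 260 bp away, and the Tspan8 promoter was covered to 100% and 44.8% in control 1 and 2 and to 89.1% and 89.7% in test 1 and 2.

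Of 174 intergenic regions of mesenchymal and EMT genes, 1 was a member (0.575%) and 15 were control-only (8.62%), beside 1.58% and 3.66% over all genes. The member, absent with peaks of at least 500 bp (0 members), lay 38.347 kb downstream of Postn, the gene for the matrix protein periostin, at chr3:54399456-54399740, with 285 bp in test 1 and 161 bp in test 2. The Postn promoter had coverage in control 1 (72.6%) and test 1 (48.7%) and none in control 2 and test 2 (0% in both). Fibroblast markers had 0 members among 35 regions and 5 control-only ones. Endothelial markers had 0 of 18, adipocyte markers 0 of 15, and keratinocyte differentiation genes and hepatocyte markers 0 of 7 each. At the share of 1.58% over all genes, lists of this size would hold fewer than 1 member, so nothing is read from these counts. The 14 adipocyte marker promoters bore 4, 4, 4 and 2 peaks in control 1, control 2, test 1 and test 2. Peaks on the promoters of fibroblast and endothelial markers were fewest in test 2, as given above, and the part of cell make-up in these counts was not tested.

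Among immune genes, members lay near Fcgr3, Fcgr1 and Ctla4. Fcgr3 encodes a low-affinity and Fcgr1 a high-affinity Fc receptor of myeloid cells. The Fcgr3 member, 7.08 kb upstream at chr1:171072015-171072998, had 241 bp in test 1 and 984 bp in test 2, and the Fcgr3 promoter was covered to 0%, 7.90%, 0% and 55.8% in control 1, control 2, test 1 and test 2, highest in test 2 alone. The Fcgr1 member, 39.484 kb upstream at chr3:96333453-96334163, had 309 and 711 bp in test 1 and test 2. Myeloid markers as a list had 2 members (4.76%, against 1.58% over all genes) and 4 control-only regions (9.52%, against 3.66%) of 42. They had no member (0) with peaks of at least 500 bp or under a 50% rule, by which each test tumor had to cover 50% of the region. Their promoters bore 15, 13, 12 and 10 peaks of 21, so that the list was not higher in test tumors. The Ctla4 member, near the inhibitory receptor gene of T cells, was 1 of only 4 members with at least 1 kb in test 1 (1206 bp, against 737 bp in test 2), and it lay 76.822 kb from a promoter without a peak in any tumor (0% in each). T cell markers had 1 member and 2 control-only regions of 45 (2.22% and 4.44%), and their promoters bore 4, 5, 5 and 2 peaks of 17. No member was assigned to the 23 regions of genes for TSLP, IL-3 family and IL-4 family signaling (0), and 2 were control-only (8.70%). At 1.58% so few regions would hold fewer than 1 member, and nothing is read from the 0.

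Retinoic acid genes had 2 members of 55 regions (3.64%, against 1.58% over all genes) and 3 control-only regions (5.45%, against 3.66%). Lrat, which esterifies retinol for storage, had a member 42.596 kb upstream (chr3:82946569-82947158, 427 and 548 bp in test 1 and test 2) in the lincRNA gene Gm30097, with control peaks 3698 bp away in control 1 and 42491 bp away in control 2. Its promoter had no peak in any tumor (0% in each). The member of the retinol dehydrogenase gene Rdh11 was narrow (chr12:79193763-79193983, 212 and 178 bp).

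The signaling lists held between 0 and 3 members each, beside a share of 1.58% over all genes. The Notch pathway had 1 of 90 regions (1.11%), near Rbpj, the DNA-binding effector of Notch, at a distance of 84.028 kb (chr5:53381828-53382124, 297 bp in test 1 and 205 bp in test 2). With peaks of at least 500 bp the Notch list had 2, both of them other regions than this member. The Wnt pathway had 0 of 96, but 1 with peaks of at least 500 bp, 2 with equal numbers of peaks per tumor, and between 4 and 12 with a tumor left out. The TGF-beta and BMP list had 3 of 126 (2.38%, and 0 with peaks of at least 500 bp), those of Id2 and 1 near the inhibitory SMAD gene Smad6 (chr9:63927428-63927826, 242 and 399 bp in test 1 and test 2). ErbB, FGF and IGF genes had 1 of 57 (1.75%), that of Igfbp5. Control-only regions numbered 3 for Notch (3.33%), 1 for Wnt (1.04%), 9 for TGF-beta and BMP (7.14%), and 2 for ErbB, FGF and IGF genes (3.51%), beside 3.66% over all genes.

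Early response genes had 3 members of 169 regions (1.78%), near the background of 1.58%. With peaks of at least 500 bp they had 1, a different region, since none of the 3 had at least 500 bp in both test tumors. Under the 50% rule there was 1 member. A pair lay downstream of Egr1, a zinc finger factor induced by growth signals, at 5.22 and 6.015 kb, with 454 and 166 bp in test 1 and 244 and 735 bp in test 2. The Egr1 promoter was covered to 83.9% and 86.9% in the controls against 90.4% and 90.5% in the test tumors, an order held by 14.2% of promoters of genes with an intergenic region. The member of Fos, which encodes an AP-1 subunit, had 274 and 161 bp in test 1 and test 2, and its flanks were covered to 49.2%, 39.3%, 43.9% and 33.1% without separation of the groups.

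Cell cycle genes had 3 members of 70 regions (4.29%, against 1.58% over all genes) and 2 control-only ones (2.86%, against 3.66%). The members numbered 0 with peaks of at least 500 bp only, and 1 under the 50% rule. The members lay near Ccnd1, which encodes cyclin D1 (chr7:145020074-145021056, 283 bp in test 1 and 931 bp in test 2), near the proliferation marker gene Mki67 (chr7:135725674-135726182, 212 and 465 bp), and near Cdkn1b, which encodes the inhibitor p27 (chr6:134941951-134942224, 244 and 229 bp). The Mki67 promoter was covered to 67.2% and 75.6% in the controls against 84.6% and 83.7% in the test tumors, whereas those of Ccnd1 and Cdkn1b were fully covered in all 4 (100%). The order seen at Mki67 was held by 14.2% of promoters of genes with an intergenic region. A single neuronal marker gene, Map2, which encodes a microtubule-associated protein of dendrites, had a member 73.069 kb upstream (chr1:66101720-66102204, 269 and 485 bp), with no control peak nearer than 72515 bp. Neuronal marker promoters bore 1, 2, 1 and 1 peaks of 14 in control 1, control 2, test 1 and test 2. Over the 21 lists, 20 of the 297 genes with an intergenic region had a member (6.73%, against 4.89% of all such genes), and 9 lists had none. Counted by region, 23 of the 1436 intergenic regions assigned to listed genes were members (1.60%), near the 1.58% over all genes.

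The genes with a pair of members were looked at after their values had been seen. By assignment within 100 kb there were 22 of them, and none had more than 2. Members farther off were not counted, such as those nearest Id2 at 148.466 and 241.8 kb and nearest Cd24a at 129.722 kb. Besides Id2, Cd24a and Egr1 the genes with a pair included Nfkbia, which encodes an inhibitor of NF-kappa B, and Sult1e1, an estrogen sulfotransferase gene. At Nfkbia the promoter was covered to 75.7% and 83.8% in control 1 and 2 and to 86.2% and 85.1% in test 1 and 2. Of the 22 promoters, 6 were higher in both test than in both control tumors and none the reverse (0), beside 14.2% and 7.74% of the promoters of all genes with an intergenic region. Another 6 had no peak in any tumor, that of Sult1e1 among them. Of all 329 genes, 46 (13.98%) also had a control-only region assigned, against 18.3% of the 6732 genes, and 23 (6.99%) also had a test-only region in a gene or promoter, against 4.66%.

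To describe what sequences the members share, 20 short motifs were searched on both strands in the central windows of up to 300 bp and set beside the same windows of all 31584 intergenic regions. The AP-1 motif TGANTCA occurred in 50 members (10.3%, exact binomial 95% interval 7.73 to 13.3), in 11.8% of all intergenic regions and in 14.2% of those present in all 4 tumors. The ELF5-type motif AGGAAGNA was found in 17.3% of members and 16.2% of all, the STAT motif TTCNNNGAA in 9.26% and 11.1%, the GATA motif AGATAAG in 3.29% and 3.43%, and the RUNX motif TGTGGTT in 7.41% and 7.07%. For these the interval of the members held the share of all regions. The forkhead motif TGTTTAC was found more often than that, in 36 members (7.41%, interval 5.24 to 10.1) against 4.89% of all and 4.78% of control-only regions. The palindrome ACANNNTGT, part of the site of glucocorticoid, progesterone and androgen receptors, was found less often, in 34 members (6.996%, interval 4.89 to 9.64) against 9.70%. For these motifs alone of the 20 the interval left out the share of all regions. With 20 intervals at 95%, some can do so by counting error alone. Among the remaining motifs, members and all intergenic regions had SOX (ACAATGG) in 6.58% and 5.24%, C/EBP (TTGCNNAA) in 16.7% and 14.2%, TEAD (GGAATG) in 18.5% and 17.8%, GRHL (AACNNGTT) in 6.17% and 5.44%, TFAP2 (GCCNNNGGC) in 8.85% and 8.98%, and the nuclear receptor single site (AGGTCA) in 21.2% and 19.2%. The NFI single site (TTGGCA) was in 21.4% and 20.2%, KLF (CCACCC) in 19.96% and 19.6%, IRF (GAAANNGAA) in 10.1% and 11.5%, TCF/LEF (ATCAAAG) in 4.32% and 4.70%, OCT (ATGCAAAT) in 1.03% and 1.60%, CRE (TGACGTCA) in 0.412% and 0.275%, and the second ETS form (ACCGGAAG) in 0.412% and 0.522%. Some of these strings can overlap each other, such as both ETS forms. Windows were shorter for narrow regions, no test was made over the 20 motifs, and the intervals cover counting error only.

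**Figure D5:**
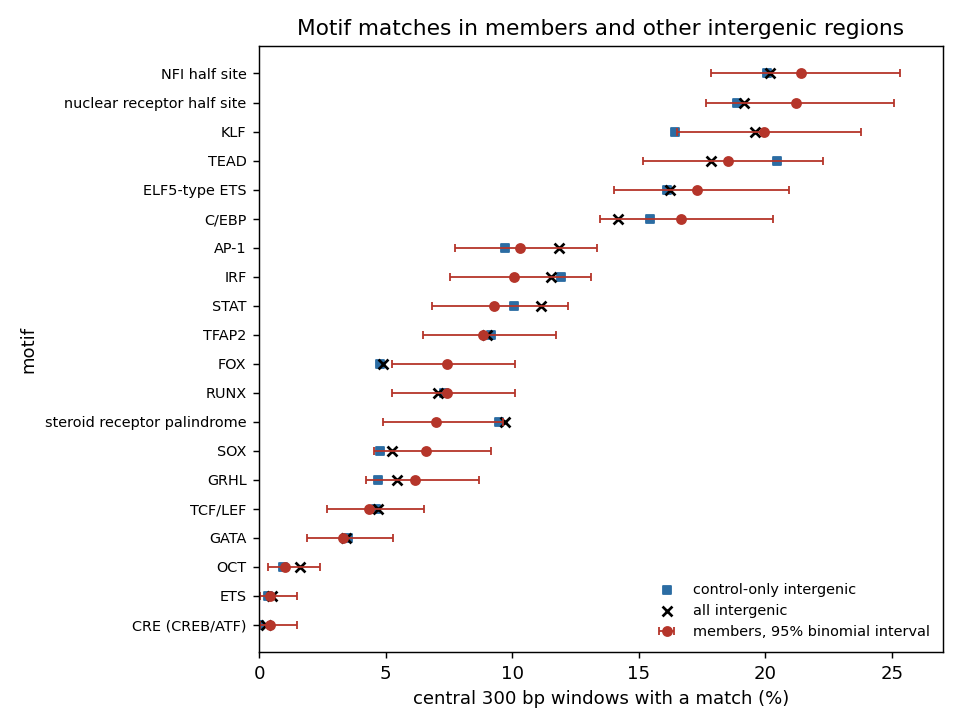
Percent of central windows (up to 300 bp) with a match to each of 20 motifs, for members (red points with exact binomial 95% intervals), control-only regions (blue squares) and all intergenic regions (crosses). The intervals include the cross for all but the forkhead motif (7.41% against 4.89%) and the steroid receptor palindrome (6.996% against 9.70%).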

How the data were processed

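ChIP-seq of H3K27ac was described in 4 mouse breast tumors, grouped by the genotype given per the labels. The numbers 1 and 2 follow accession order and only name a tumor. The authors used BWA to align reads to mm10 and MACS2 to find the peaks of every tumor over its own input library. The deposited lists give the chromosome, start and end of each merged interval in base pairs, with no score, signal or p-value, so peak strength was not measured and depth is unknown. What the cleaning named in the lists removed is not given in the sources used here. Input libraries were not analysed here.

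Union regions, gene distances (GENCODE M21, 21938 protein-coding genes), coverage and motif counts were computed in python 3.11.15 with numpy 2.4.6 and scipy 1.17.1, after a check on simulated intervals. Presence meant an overlap of at least 1 bp. Sequences came from RefSeq's GRCm38.p6 assembly. Members, gene lists, motifs and rules were chosen with earlier results of these data known. Of the gene symbols, 18 of 20 T cell markers and all others matched. Named were the 10 widest members, those assigned to listed genes and those nearest the limits of the rule. Alternatives changed the peak width, number, joining, overlap, gene set, windows and tumors.

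The 486 members rest on the same 4 tumors as every comparison. Differences between groups are therefore descriptions without a test.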

Additional observations from a re-analysis of the deposited data

How the results depend on the processing

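The number of members and which regions they were depended on the width of peaks. With only peaks of at least 500 bp there were 283 members, but these overlapped only 21 (4.32%) of the 486, since most of the 486 rest on narrower peaks. There were 323 with peaks within 1 kb joined and 306 where each test tumor had to cover 50% of the region. The median width was 963 bp with peaks of at least 500 bp, 459 bp with equal numbers of peaks per tumor, 575 bp with joining and 325.5 bp with the 50% rule. The share beyond 100 kb was 23.7% with peaks of at least 500 bp. The flank difference was 0.447 points at 50 kb. The AP-1 share was 6.86% with the 50% rule and 15.8% over whole regions. Listed genes with a member numbered 11 with peaks of at least 500 bp and 9 with assignment within 20 kb. The cause of the other shifts was not tested.

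Leaving out 1 tumor loosens the rule by construction. Without each tumor in turn the number ran from 960 (without control 2) to 4201 (without test 1), the median width from 214 to 489 bp, the share beyond 100 kb from 24.2% to 38.2%, the flank difference from 0.783 to 2.27 points, the promoter difference from 2.07 to 3.54 points, the AP-1 share from 10.1% to 11.6% and the listed genes from 40 to 100. None of these summaries changed sign under the alternatives run. No paired analysis was possible because the labels give no replicate numbers and the result comes from no test. With unknown depth, a peak missing from a list is not shown to be missing from the tumor.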
